A study of Mus musculus with 15 samples.

Results

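The 10 genes described here are 3 ligands that act on blood vessels (Vegfa, Vegfb and Angpt1), 4 receptors for such ligands (Flt1, Kdr, Nrp1 and Tek) and 3 further transcripts of endothelial cells (Pecam1, Cdh5 and Egfl7). They were chosen by gene symbol, and all 10 were found among the 13602 symbols of the deposited count table and passed the low-count filter that left 11062 genes for testing. The samples were gastrocnemius, a calf muscle, from 8 male controls of the genotype wild type (floxed) and from 7 male mice with a Cpt1b skeletal muscle knockout. Cpt1b encodes the enzyme that admits long-chain fatty acids to muscle mitochondria. The labels did not name the Cre driver, the deleted exons or the strain, and the mice were on chow for 12 to 14 weeks according to the series text and titles, but the field for diet says 45% HFD in each of the 15 sample records. The question was whether the supply of vascular ligands and the endothelial transcripts differ when muscle lacks this enzyme. The design text gives 8 and 7 mice, so each library was taken as 1 mouse.

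VEGF-A is released by muscle fibres and other cells, among other stimuli when oxygen is short, and drives capillary growth through Kdr on endothelial cells. Flt1 binds VEGF-A tightly and acts largely as a decoy, and it is also the receptor of VEGF-B, a ligand abundant in heart and oxidative muscle. Nrp1 is a co-receptor, and angiopoietin 1, the product of Angpt1, is made mainly by cells around the vessel and steadies it by activating the endothelial receptor Tek. Pecam1 and Cdh5 are adhesion molecules of the endothelial junction, and Egfl7 is a protein secreted by endothelium.

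SAGE, the method used, reads and counts only a short piece of each transcript, taken beside a cutting site toward the 3′ end, so the count of a gene rests on a few bases. The tags that the annotation predicts for the 10 genes are shown because they are what the counts stand for. Each starts at the CATG nearest the 3′ end (in capitals), the usual anchoring site of SAGE, though the labels do not name the enzyme. They are 27 bases long and are read 5′ to 3′ on the strand of the gene from GENCODE M21 transcripts (GRCm38).
Vegfa: CATGatagtctacaaaagcaccccgcc
Vegfb: CATGtctcacctcaggggccagggtac
Angpt1: CATGtgtgtagcaatttgatacgcata
Flt1: CATGatgaatgtatttcacatattatc
Kdr: CATGgaatatgcagctatataccctac
Nrp1: CATGtgacctgtagcccagtgcccaga
Tek: CATGtattgtaaaattttgtagttttg
Pecam1: CATGccgaaggcccaaagaagagaaat
Cdh5: CATGagatgtactgtacctttttttat
Egfl7: CATGgggagtggggtcttgtgtgactc

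All 10 predicted tags lay in the 3′ UTR of the coding transcript that reaches farthest downstream. None was predicted for another gene, and none overlapped an exon of another gene. The ligand tags were at chr17:46018082-46018108 (Vegfa, minus strand), chr19:6982634-6982660 (Vegfb, minus) and chr15:42424822-42424848 (Angpt1, minus). The receptor tags were at chr5:147561635-147561661 (Flt1, minus), chr5:75932979-75933005 (Kdr, minus), chr8:128503245-128503271 (Nrp1, plus) and chr4:94874828-94874854 (Tek, plus). Those of the other 3 genes were at chr11:106654485-106654511 (Pecam1, minus), chr8:104144449-104144475 (Cdh5, plus) and chr2:26592582-26592608 (Egfl7, plus). The coding transcripts of 5 genes had a single predicted tag. Among these is Cdh5, where 1 of 2 coding transcripts had the tag and the other had none predicted. Vegfa had 3 different tags over its 8 coding transcripts, and its tag shown lies 1116 bases from the transcript end. Flt1 had 2, Tek 2, Pecam1 3 and Egfl7 4. The deposited counts are per gene symbol, so forms of a gene with different 3′ ends, such as the soluble and the membrane-bound receptor made from Flt1, cannot be told apart, nor can splice forms that share a 3′ end.

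Total counts per library ran from 8334436 to 19397255 and did not differ between groups (exact permutation test, two-sided p = 0.901). The 10 most abundant genes of each library took a smaller share of its tags in knockouts, 25.9% ± 1.39 (SD, n = 7) beside 28.8% ± 1.21 (SD, n = 8; exact permutation test, two-sided p = 0.0014), and the part of this in the results was not tested. Control replicate 7 and knockout replicate 4 stood apart from the other libraries of their groups along the leading component of expression, which held 44.6% of the variance, and results that rest on them are given with and without them. The mean of Cpt1b itself was 7.64 ± 3.17 CPM (SD, n = 8 controls) against 3.79 ± 1.64 CPM (SD, n = 7 knockouts). Its log2 difference was -1.03 ± 0.31 (SE, edgeR adjusted p = 0.103), and whether its tag falls within the deleted part is unknown, so this does not check the genotype. CPM is the tag count per 1000000 tags of the TMM-adjusted library total. Since a transcript with a usable cutting site gives a tag whatever its length, CPM can be set side by side between genes. Differences in how well a tag is recovered, and transcripts without a tag, limit this.

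None of the 10 genes passed an edgeR adjusted p of 0.05 between knockout and control muscle, where 2.17% of all 11062 genes tested passed (1.67% higher and 0.497% lower in knockouts). A single one of them, Angpt1, had an unadjusted p under 0.05, as had 13.6% of all genes. The median log2 fold change of the 10 was 0.06 and that of all genes tested 0.005, and 6 of the 10 were positive, beside 50.6% of all genes. The libraries of the groups overlapped in each of the 10 genes, whereas they did not overlap in 1.19% of genes. In whole muscle, fewer cells of a type and less RNA per cell cannot be told apart.

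**Figure D1:**
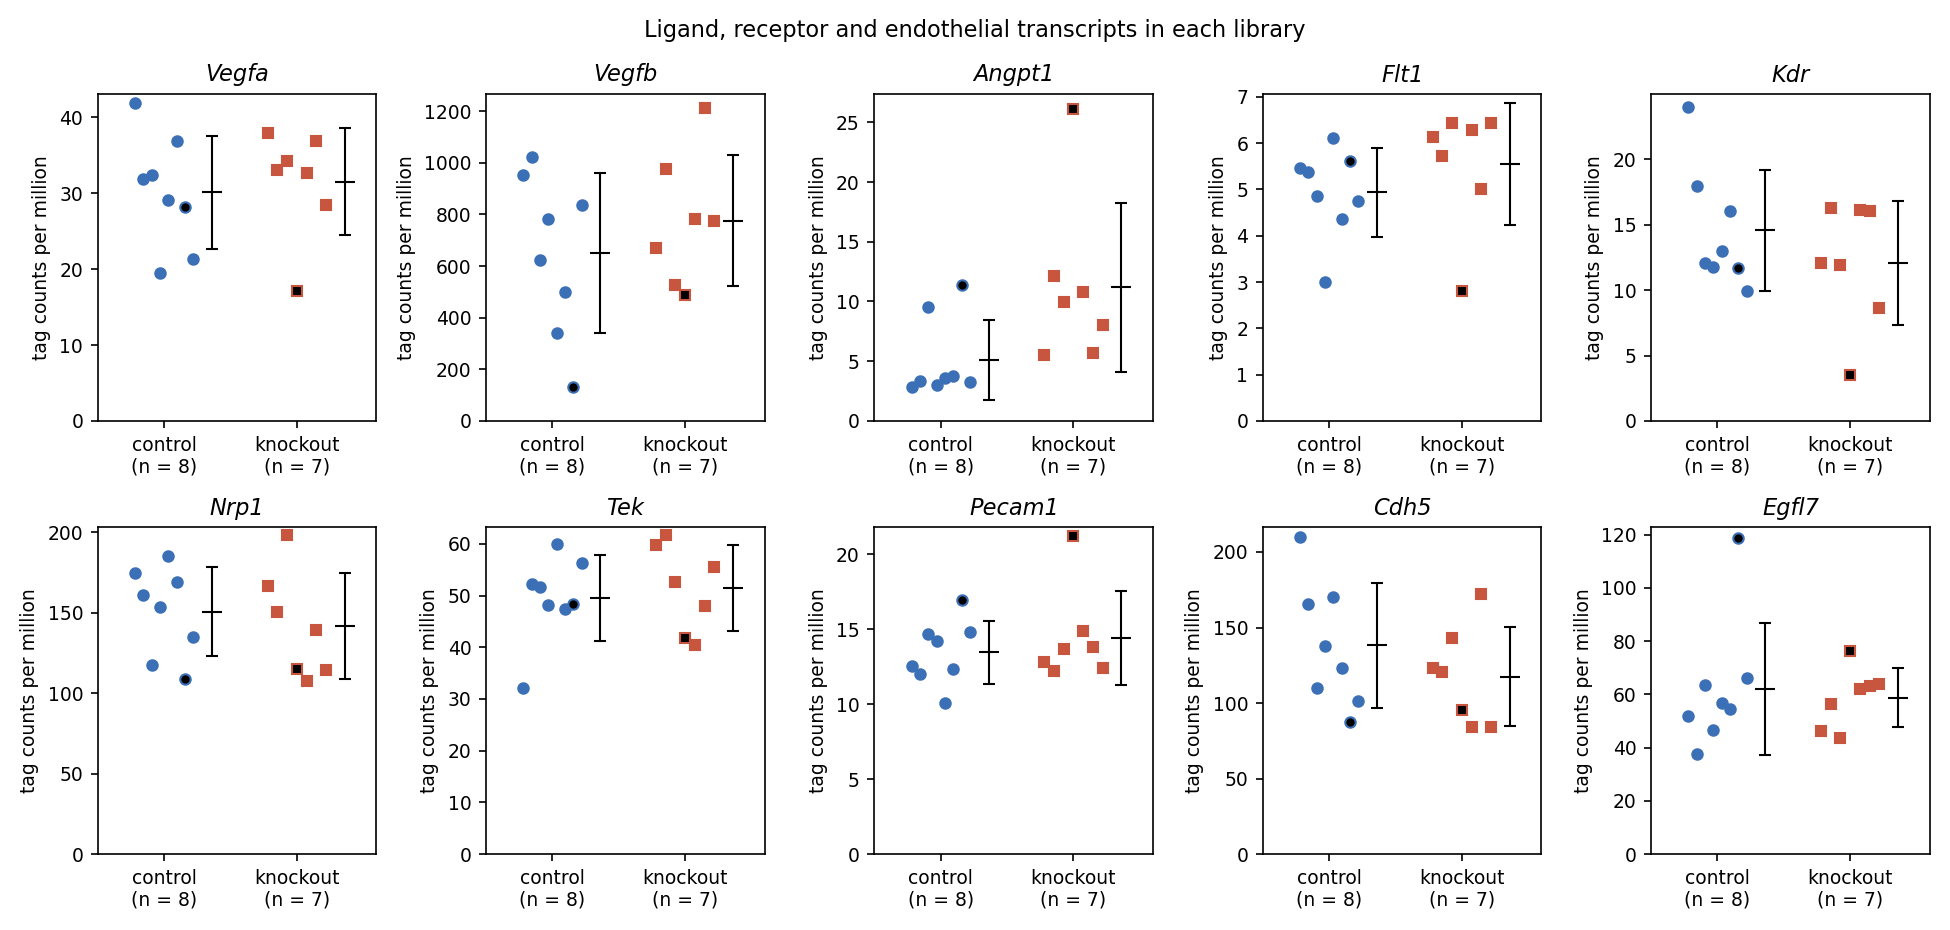
CPM (linear axis from 0) of the 10 genes in each of 8 control (circles) and 7 knockout libraries (squares), with group mean and SD beside the points; black filling marks control replicate 7 and knockout replicate 4. The groups overlap in every panel, and in Angpt1 all 7 knockouts lie above 6 of the 8 controls.

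The VEGF ligands differed widely in level. Vegfb had the highest level of all 10, a mean of 708 CPM over the libraries (rank 175 of 11062 genes), and Vegfa stood at 30.8 CPM (rank 2850). In controls Vegfb ran from 130 CPM through a median of 703 to 1024 CPM, and in knockouts from 486 through 775 to 1212 CPM. The lowest value was that of control replicate 7, and the other 14 libraries ran from 342 CPM upwards. The log2 fold change of Vegfb was 0.26 ± 0.32 (SE, 95% interval -0.42 to 0.94, edgeR adjusted p = 0.729), and it was 0.10 without control replicate 7 and 0.63 in a model that also held the first surrogate variable, an estimate of unlabelled variation. This interval is the widest among the VEGF ligands and their receptors.

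Vegfa, the principal angiogenic ligand, was measured more evenly. Controls ran from 19.5 CPM through a median of 30.6 to 41.9 CPM and knockouts from 17.1 through 33.1 to 37.9 CPM. Knockout replicate 4 was the lowest of all, and the other 6 knockouts (28.4 to 37.9 CPM) lay inside the control range. Its log2 fold change was 0.06 ± 0.18 (95% interval -0.32 to 0.44, edgeR adjusted p = 0.886). There were 21.0 Vegfb tags to each Vegfa tag in the median control (4.62 to 40.1) and 27.2 in the median knockout (15.4 to 32.8), so Vegfb outnumbered Vegfa in all 15 libraries.

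Angpt1, the ligand of Tek, had the largest difference of the 10 genes. In controls it ran from 2.86 CPM through a median of 3.48 to 11.4 CPM, and in knockouts from 5.52 through 9.94 to 26.2 CPM. Of the controls 6 lay between 2.86 and 3.77 CPM, below every knockout, while control replicates 3 and 7 reached 9.57 and 11.4 CPM. This gave a log2 fold change of 1.12 ± 0.37 (95% interval 0.33 to 1.90), a 2.17-fold higher level, with an unadjusted p of 0.00796 and an edgeR adjusted p of 0.160. The level rests on 116.5 tags per library on average, with 549 in knockout replicate 4 and 215 in control replicate 7. The 6 lower controls held 23 to 52 tags, and knockout replicates 1 and 6 held 62 and 51.

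The call on Angpt1 turned on which libraries were used and on the handling of the leading component. It passed without control replicate 7 (log2 1.41, edgeR adjusted p = 0.0300), without control replicate 7 and knockout replicate 4 together (1.02, adjusted p = 0.0490), and in the model with the surrogate variable (0.73, adjusted p = 0.0109). Without knockout replicate 4 alone the log2 fold change was 0.74 (adjusted p = 0.384), and by DESeq2 the adjusted p was 0.0665. Summed tendon markers (5 genes tested) were also highest in knockout replicate 4 (455 CPM), control replicate 7 (453 CPM) and control replicate 3 (344 CPM), and ran from 124 to 320 CPM in the other libraries. Tendon was not alone in this: knockout replicate 4 and control replicate 7 also held the top 2 sums of muscle fibre markers (76795 and 64108 CPM), of Schwann cell markers (122.1 and 123.9 CPM) and of the endothelial markers given further on. Tendon markers had a median log2 fold change of -0.59 between the groups, with Comp, a tendon matrix protein, called lower (not without any 1 of control replicates 1 and 4 and knockout replicates 5 and 7, adjusted p up to 0.0624). Summed markers of pericytes and smooth muscle, cells known to make Angpt1, ran from 565 to 810 CPM in controls and from 584 to 742 CPM in knockouts. Much of this sum was Myh11 (335 ± 92.0 CPM in controls, 287 ± 69.5 CPM in knockouts) and Abcc9 (146 ± 43.4 and 174 ± 47.4 CPM). Of the 13 tested 0 were called, and the median log2 fold change was -0.19. An unadjusted p under 0.05 was seen in 4 of the 13, each lower in knockouts, beside 13.6% of all genes. Of these Cspg4, a pericyte proteoglycan, had the smallest p (11.4 ± 5.42 against 6.11 ± 2.92 CPM, log2 -0.91 ± 0.33, edgeR adjusted p = 0.208). The part of these cell types in the Angpt1 values was not tested.

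The receptors did not pass the test. Tek, which had the smallest standard error, ranged over 32.0 to 60.0 CPM among controls (median 49.99) and over 40.5 to 61.7 CPM among knockouts (median 52.6). Its log2 fold change was 0.05 ± 0.14 (95% interval -0.23 to 0.34, edgeR adjusted p = 0.870). The lowest value was that of control replicate 1. In the median control there were 14.0 Tek tags to each Angpt1 tag (4.24 to 17.5) and in the median knockout 5.29 (1.597 to 10.8), and these ranges overlapped.

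Kdr, the receptor through which VEGF-A signals, ran from 9.93 CPM through a median of 12.5 to 24.0 CPM in controls and from 3.48 through 12.1 to 16.3 CPM in knockouts. Control replicate 1 was highest and knockout replicate 4 lowest, and the medians lay close together. The log2 fold change was -0.27 ± 0.27 (95% interval -0.84 to 0.29, edgeR adjusted p = 0.659), and -0.10 without knockout replicate 4. Flt1, with the lowest mean of the 10 genes over all libraries (5.22 CPM), although among controls the median of Angpt1 (3.48 CPM) was below that of Flt1 (5.12 CPM), ranged over 2.998 to 6.11 CPM among controls and over 2.81 to 6.44 CPM among knockouts. Its knockout minimum was again replicate 4, and the other 6 knockouts lay between 5.01 and 6.44 CPM. The log2 fold change was 0.16 ± 0.19 (95% interval -0.23 to 0.55, edgeR adjusted p = 0.707), from 65.4 tags per library on average. It was 0.28 without knockout replicate 4 and 0.30 without that library and control replicate 7.

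Nrp1 was the most abundant receptor. It ran from 109 CPM through a median of 157 to 185 CPM in controls and from 107 through 139 to 199 CPM in knockouts, with both extremes in knockout libraries. Its log2 fold change was -0.09 ± 0.16 (95% interval -0.42 to 0.24, edgeR adjusted p = 0.809).

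The 3 endothelial junction and secreted genes did not pass either. Cdh5 (VE-cadherin) ran from 87.7 CPM through a median of 131 to 210 CPM in controls and from 84.0 through 121 to 172 CPM in knockouts. Its log2 fold change was -0.23 ± 0.20 (95% interval -0.65 to 0.19, edgeR adjusted p = 0.617). Leaving out control replicate 1 gave -0.12, leaving out knockout replicate 6 gave -0.35, and the model with the surrogate variable gave -0.03. Pecam1 (CD31) ran from 10.1 through 13.4 to 16.9 CPM in controls and from 12.2 through 13.7 to 21.2 CPM in knockouts, with its maximum in knockout replicate 4. Its log2 fold change was 0.10 ± 0.14 (95% interval -0.20 to 0.41, edgeR adjusted p = 0.755), and -0.02 without that library. Egfl7 ran from 37.5 through 55.5 to 119 CPM in controls and from 43.8 through 61.9 to 76.2 CPM in knockouts, and control replicate 7 held its maximum. Its log2 fold change was -0.08 ± 0.20 (95% interval -0.50 to 0.35, edgeR adjusted p = 0.871), and 0.13 without that library.

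**Figure D2:**
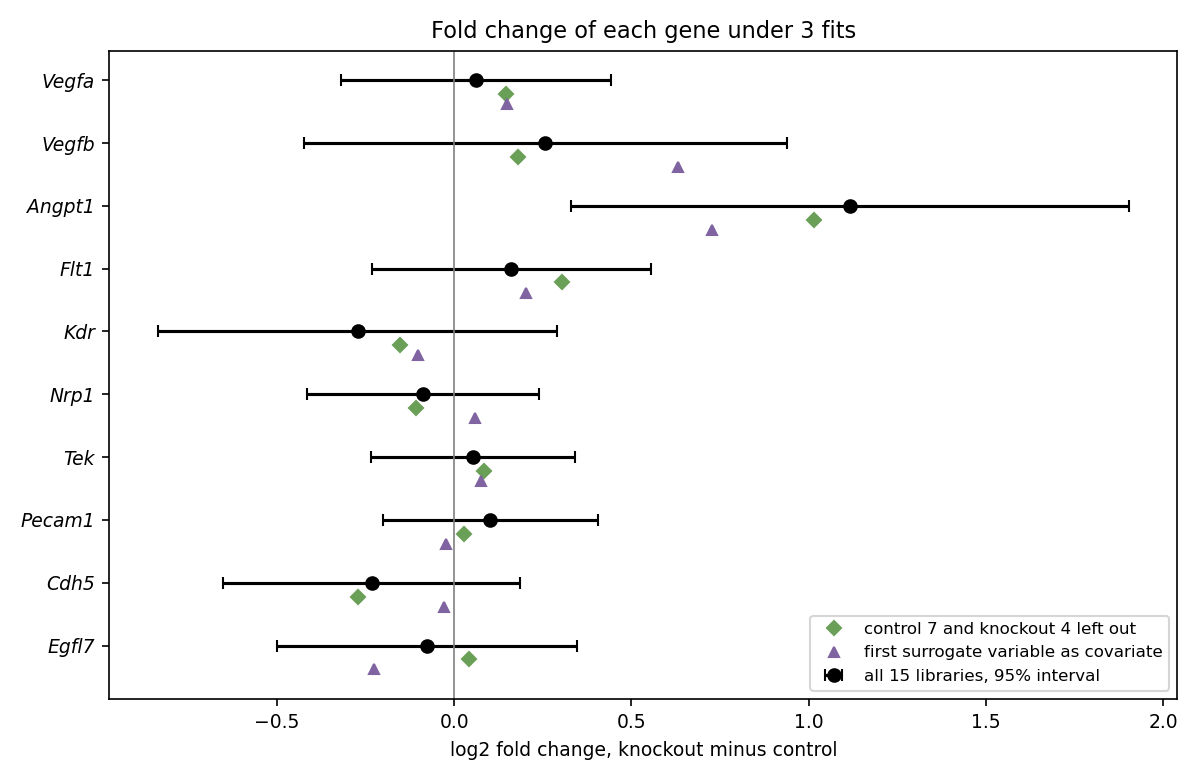
Log2 fold change (knockout minus control) of the 10 genes in the fit of all 15 libraries (circles, bars are 95% intervals), without control replicate 7 and knockout replicate 4 (diamonds) and with the first surrogate variable in the model (triangles). The interval of Angpt1 (0.33 to 1.90) is unadjusted and alone lies above 0; the intervals of the other 9 genes contain 0.

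In order of level over all libraries the genes were Vegfb, Nrp1, Cdh5, Egfl7, Tek, Vegfa, Pecam1, Kdr, Angpt1 and Flt1. Vegfb lay above Nrp1 in all 15 libraries. Egfl7 lay above Tek in 9 of 15 (5 of 8 controls and 4 of 7 knockouts) and Pecam1 above Kdr in 8 (4 of 8 and 4 of 7), so these neighbours did not differ beyond their spread. Angpt1 lay above Flt1 in 2 of 8 controls and in 6 of 7 knockouts, and this difference in order was not tested. Nrp1 lay above Cdh5 in 12 of 15. In each of the other 4 neighbouring pairs the order held in 14 of 15 libraries.

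Set against each other by role, the ligands together ran from 170 to 1059 CPM in controls (median 735) and from 530 to 1255 CPM in knockouts (median 811), nearly all of it Vegfb. The 4 receptors together had a control median of 226 CPM (175 to 265) and a knockout median of 208 CPM (163 to 269). For Pecam1, Cdh5 and Egfl7 together these medians were 207 CPM (182 to 275) and 189 CPM (160 to 249). Expressed as a log2 ratio, Vegfa plus Vegfb to Kdr plus Pecam1 plus Cdh5 stood at 1.87 ± 0.79 in controls (SD, n = 8, 0.44 to 2.77) and 2.46 ± 0.45 in knockouts (SD, n = 7, 1.74 to 2.94). Over all libraries Cdh5 averaged 129 CPM beside 13.9 CPM for Pecam1 and 13.4 CPM for Kdr, so this is mostly a ratio of Vegfb to Cdh5. The lowest ratios were those of control replicates 7 (0.44) and 5 (0.94), the other 6 controls (1.82 to 2.77) lay inside the knockout range, and the difference was not tested.

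Between mice of the same group the 10 genes did not move as a single block. Of 45 pairs 3 passed on Pearson's r of log2 CPM with group means removed (permutation test within groups, 100000 resamples, Benjamini-Hochberg over the 45 pairs), and 1 of these passed on Spearman's rho. Vegfa and its receptor Kdr were high in the same libraries (r = 0.847, permutation p = 0.00024, adjusted p = 0.0108; rho = 0.739, permutation p = 0.00259, adjusted p = 0.0546). The r was 0.803 among controls and 0.927 among knockouts, and 0.753 without knockout replicate 4 and control replicate 4, the libraries farthest out in Vegfa. Nrp1 and Cdh5 also went together (r = 0.788, permutation p = 0.00121, adjusted p = 0.0181; rho = 0.807, permutation p = 0.00094, adjusted p = 0.0423), with an r of 0.752 without control replicate 7 and knockout replicate 3. Nrp1 and Egfl7 went in opposite directions (r = -0.738, permutation p = 0.00071, adjusted p = 0.0160; rho = -0.732, permutation p = 0.00364, adjusted p = 0.0546). Without the same 2 libraries that r was -0.64. As a description over the 15 libraries with group means removed, the genes of these pairs also followed the leading component of expression, with an r of -0.795 for Nrp1, -0.78 for Cdh5, 0.801 for Egfl7, -0.661 for Kdr and -0.546 for Vegfa. Angpt1 had 0.922, Pecam1 0.77 and Vegfb -0.626, and the component's part in the pairs was not tested.

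The markers of the endothelial junction did not go together. Pecam1 and Cdh5 had an r of -0.522 (permutation p = 0.0521, adjusted p = 0.124; rho = -0.471, permutation p = 0.0858, adjusted p = 0.209), which was -0.781 among controls, -0.259 among knockouts and -0.403 without knockout replicate 4 and control replicate 7. There were 5.19 to 16.8 Cdh5 tags to each Pecam1 tag in controls and 4.50 to 12.5 in knockouts. Vegfa and Vegfb had an r of 0.169 (permutation p = 0.5684, adjusted p = 0.711; rho = 0.236, permutation p = 0.417, adjusted p = 0.605), and 0.191 without knockout replicate 4 and control replicate 4. The first of these pairs did not pass and its sign was the same in both groups, and no relation was detectable in the second. Angpt1 and Pecam1, with an r of 0.686 (permutation p = 0.0103, adjusted p = 0.0844; rho = 0.35, permutation p = 0.214, adjusted p = 0.381), had 0.237 without knockout replicate 4 and control replicate 7, so that value rested on these libraries.

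**Figure D3:**
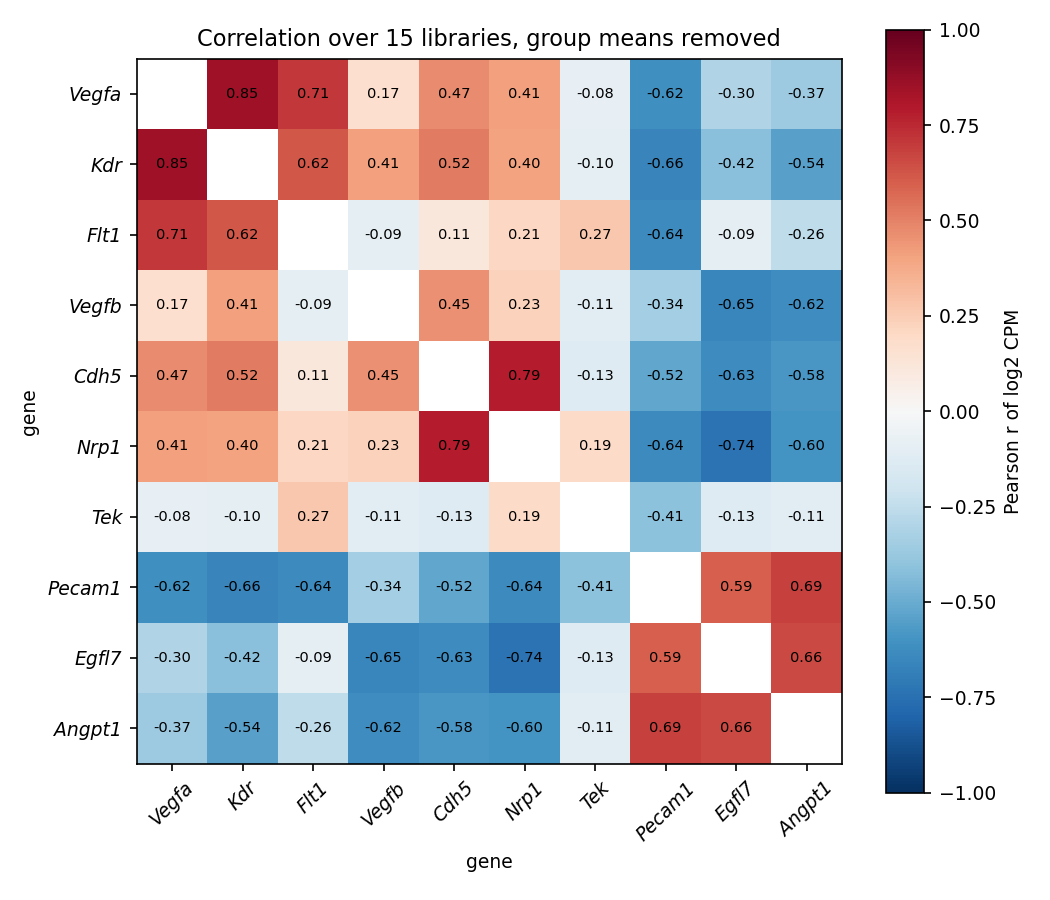
Pearson r of log2 CPM for each pair of the 10 genes over 15 libraries after removing the group means (red positive, blue negative). Vegfa, Kdr, Cdh5 and Nrp1 have positive values with each other and negative ones with Pecam1, Egfl7 and Angpt1; of the 45 pairs, Vegfa with Kdr (0.85), Nrp1 with Cdh5 (0.79) and Nrp1 with Egfl7 (-0.74) passed.

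Over the 15 libraries and among genes with a mean of at least 20 CPM, the genes most like Kdr by Pearson's r with group means removed were Abcb8 (0.924), Rnf40 (0.919), Sun2 (0.918), Mfn2 (0.903) and Sema6c (0.901). Those most like Vegfa were Mepce (0.831), Sun2 (0.823), Abcb8 (0.812), Etfa (0.808) and 2310042D19Rik (0.802). Sun2 and Abcb8 stood in both lists. Those most like Vegfb were Scamp2 (0.906), Grlf1 (0.898), Man2a2 (0.887), Rrp12 (0.887) and Tceb3 (0.886). These are the highest of 3805 or 3806 genes and are given as a description. All 15 values were lower without the 2 libraries farthest out in the member, at 0.729 to 0.792 for Kdr, 0.54 to 0.762 for Vegfa and 0.699 to 0.83 for Vegfb.

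Of 16 tested genes listed as possible regulators of Vegfa and Vegfb, 3 passed, beside 2.17% of all genes, although neither ligand did. An unadjusted p under 0.05 was found for 7 of the 16, beside 13.6% of all genes. Epas1, which encodes the oxygen-sensitive factor HIF-2alpha, rose from a control mean of 138 ± 34.9 CPM to 238 ± 62.7 CPM (log2 0.78 ± 0.18, edgeR adjusted p = 0.0253). Single controls spanned 107 to 200 CPM and single knockouts 152 to 339 CPM, and 5 of the 7 knockouts lay above every control. Esrrb, a nuclear receptor of the oestrogen-related family, rose from 2.66 ± 0.89 to 5.37 ± 1.28 CPM (log2 1.00 ± 0.21, edgeR adjusted p = 0.0137), from 51 tags per library on average. Control replicate 7 (4.62 CPM) was the only control above the lowest knockout (3.74 CPM). Egln3, a prolyl hydroxylase that marks HIF proteins for breakdown, fell from 50.8 ± 17.0 to 28.7 ± 5.43 CPM (log2 -0.82 ± 0.19, edgeR adjusted p = 0.0304). Its controls ran from 30.4 to 79.9 CPM and its knockouts from 23.1 to 39.3 CPM. The related Egln1 went the other way, from 71.1 ± 27.5 to 100 ± 25.9 CPM (log2 0.49 ± 0.22, edgeR unadjusted p = 0.0352, adjusted p = 0.326). Egln2 had a log2 fold change of -0.26 (edgeR adjusted p = 0.515), and neither Egln1 nor Egln2 was called. Of the same family as Esrrb, Esrra (log2 0.18, edgeR adjusted p = 0.549) and Esrrg (0.34, adjusted p = 0.469) were not called. Esrrg passed in the model with the surrogate variable (0.56, adjusted p = 0.00687). The list's median log2 fold change was 0.25.

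The calls on Epas1 and Egln3 were close to the threshold. Epas1 missed it without any single library among control replicates 1, 2, 4, 5, 6 and 8 and knockout replicates 2, 5 and 7 (adjusted p up to 0.0593), and Egln3 without any of control replicates 1 to 3 and knockout replicates 1, 2, 3, 5 and 6 (up to 0.0795). Without control replicate 7 and knockout replicate 4 together both passed, as did Esrrb, and so did Ppargc1a (log2 0.64, adjusted p = 0.0157), the coactivator PGC-1alpha, which can induce Vegfa and which had a log2 fold change of 0.75 and an adjusted p of 0.0915 in all libraries. Ppargc1a also passed by DESeq2 (adjusted p = 0.0347) and in the model with the surrogate variable (edgeR adjusted p = 0.0292). Among the fits without 1 library it passed only without control replicate 7 (edgeR adjusted p = 0.0199).

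Of 18 hypoxia-responsive genes tested, 2 had an unadjusted p under 0.05, beside 13.6% of all genes, and the median log2 fold change was 0.04. None was called higher and 1 was called lower, beside 1.67% and 0.497% of all genes. This was Pfkfb4, an enzyme that sets fructose 2,6-bisphosphate, which fell from 46.5 ± 12.5 to 27.3 ± 3.39 CPM (log2 -0.77 ± 0.16, edgeR adjusted p = 0.00934). Its controls ran from 32.9 to 73.3 CPM and its knockouts from 23.0 to 33.0 CPM.

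In a wider list of genes around VEGF and angiopoietin signalling (the wider pathway), outside the 10 genes, 2 of 36 tested rose and none fell. Neither of these 2 is a VEGF, an angiopoietin or a receptor of either. In the list 13 were positive and the median log2 fold change was -0.13. Over all genes 1.67% were called higher and 0.497% lower. Of the 36, 9 had an unadjusted p under 0.05, beside 13.6% of all genes. Angptl4, an angiopoietin-like inhibitor of lipoprotein lipase that fatty acid-sensing receptors induce, rose from 93.2 ± 44.5 to 250 ± 80.4 CPM (log2 1.42 ± 0.29, edgeR adjusted p = 0.0110). It ran from 31.4 to 163 CPM in controls and from 141 to 371 CPM in knockouts. S1pr1, the endothelial receptor for sphingosine 1-phosphate, rose from 9.31 ± 1.56 to 14.97 ± 5.10 CPM (log2 0.69 ± 0.18, edgeR adjusted p = 0.0495). Its 7 controls other than replicate 7 (13.1 CPM) ran from 8.20 to 9.36 CPM, below every knockout (10.8 to 25.9 CPM). The call on S1pr1 was lost without any single library except control replicate 7 and knockout replicates 3 and 6 (adjusted p up to 0.1004). Its change was 0.49 without knockout replicate 4, and 0.57 (adjusted p = 0.00897) without control replicate 7 and knockout replicate 4 together. The list's VEGF ligands, angiopoietins and their receptors, Vegfc, Figf, Pgf, Flt4, Nrp2, Tie1 and Angpt2, had edgeR adjusted p from 0.706 to 0.958. Tie1, the partner receptor of Tek, stood at 34.2 ± 4.14 against 36.4 ± 3.69 CPM (log2 0.09 ± 0.11). Angpt2, the counterpart of Angpt1, stood at 0.848 ± 0.483 against 0.917 ± 0.436 CPM, from 11.5 tags per library on average. Of the genes with an unadjusted p under 0.05 that edgeR did not call, Eng (log2 0.46) and Ptprb (0.27) were higher. Angptl2 (-0.33), Gpc1 (-0.27), Aplnr (-0.54), Apln (-0.91) and Thbs2 (-0.39) were lower. These genes were named after their values were seen.

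**Figure D4:**
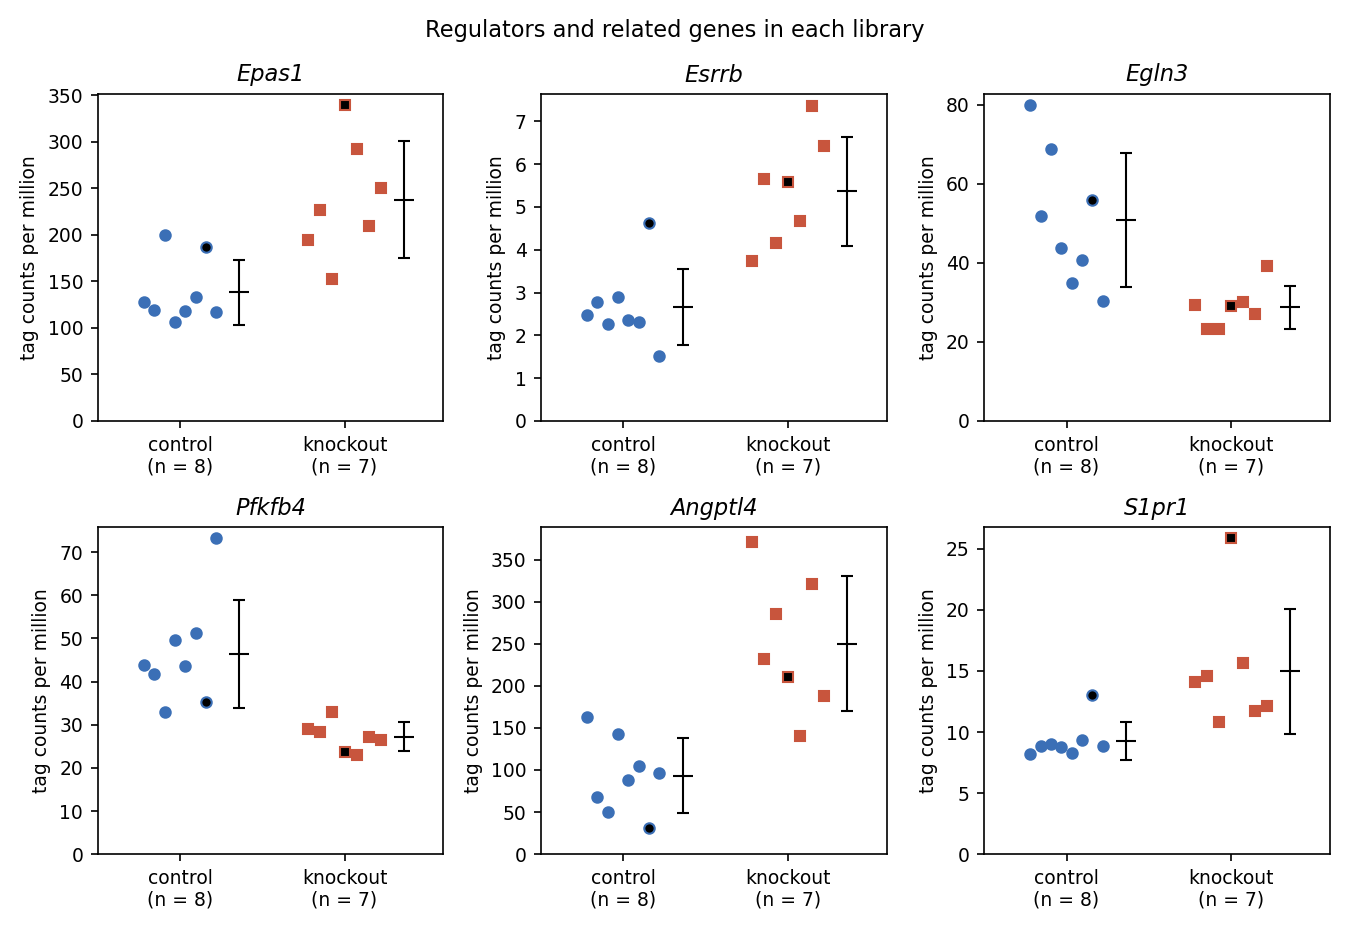
CPM (linear axis from 0) of 6 genes called between the groups in the lists of regulators, hypoxia-responsive genes and the wider pathway, for 8 controls (circles) and 7 knockouts (squares) with mean and SD; black filling marks control replicate 7 and knockout replicate 4. Epas1, Esrrb, Angptl4 and S1pr1 are higher and Egln3 and Pfkfb4 lower in knockouts, and the groups overlap in each.

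Endothelial markers outside the 10 genes gave no call either. Of 31 tested, none passed by edgeR, and the median log2 fold change was 0.10. An unadjusted p under 0.05 was seen in 5 of the 31, beside 13.6% of all genes. DESeq2 called 1. Their summed level ran from 2126 to 2654 CPM in controls and from 2430 to 3448 CPM in knockouts, highest in knockout replicate 4 and second in control replicate 7. Much of this sum is Fabp4 (949 ± 108 CPM in controls, 1105 ± 192 CPM in knockouts), a fatty acid carrier that also stands among the adipocyte markers, and Ly6a (531 ± 159 and 446 ± 125 CPM), which with Cd34 also stands among the fibroblast markers. Without these 3 genes the sum of the other 28 ran from 683 to 1442 CPM in controls and from 806 to 1713 CPM in knockouts, with the same 2 libraries on top. Tspan7, a tetraspanin, had the smallest p, with a control mean of 69.9 ± 18.2 CPM against 106 ± 22.4 CPM (log2 0.60 ± 0.18, edgeR adjusted p = 0.106). It passed by DESeq2 (adjusted p = 0.0455) and without control replicate 7 (edgeR adjusted p = 0.0463). Of 9 arterial, venous and lymphatic markers none was called by edgeR or DESeq2 and none had an unadjusted p under 0.05. Selp, P-selectin of activated venous endothelium, came nearest (log2 -0.44 ± 0.24, edgeR adjusted p = 0.447).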

How the data were processed

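SOLiD SAGE libraries were made from 500 ng of Trizol-extracted total RNA, per the labels' protocols. Raw tag counts by gene symbol were deposited by the authors, with a second table of signal values, each a count over the size factor of its library (relative deviation at most 5.4e-10). The submitters' processing notes name DESeq2 and the builds mm10 and GRCm38.p1, and aligner and tag counting are not given in the sources used here. Empty lines (360) were dropped.

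The counts were tested with edgeR 4.0.16 (R 4.3.3; quasi-likelihood, robust, TMM, filterByExpr with a minimum count of 10, group as the only term), with Benjamini-Hochberg adjustment over 11062 genes, and the script was tested on simulated data. SE is the log2 fold change over the root of F, and intervals use the fit's degrees of freedom. A prior count of 2 entered log2 CPM. The fit was repeated with DESeq2 1.42.0, limma 3.58.1 (voom), sva 3.50.0 and other scalings and libraries. Library depths were 8334436 to 19397255 tags. Genes were named by a fixed rule: all 10 genes, Cpt1b, up to 6 called genes of each pathway list and of the pericyte list (else that with the smallest p), and the 5 genes most like Vegfa, Vegfb and Kdr. Ppargc1a, Esrra, Esrrg, Tie1, Angpt2, Fabp4, Ly6a, Cd34, Myh11, Abcc9, Comp, Tnnt3, Mb and Lep stand outside this rule and were named after their values were seen. The same holds for Egln1, Egln2, Vegfc, Figf, Pgf, Flt4, Nrp2, Eng, Ptprb, Angptl2, Gpc1, Aplnr, Apln and Thbs2. The genes and lists were chosen with earlier results of these data known.

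Replicate numbers are shared between groups, and no label says that they pair mice.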

Additional observations from a re-analysis of the deposited data

Results flagged for a closer look

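In 5 of the 20 sets of values (10 genes in 2 groups), the highest or lowest library lay apart from the rest of its group by more than Dixon's 95% critical value, where chance gives about 1 in 20. Knockout replicate 4 accounted for 3 of these, with 26.2 CPM of Angpt1 (next highest 12.1), 21.2 CPM of Pecam1 (next 14.9) and 2.81 CPM of Flt1 (next lowest 5.01). Control replicate 7 held 119 CPM of Egfl7 (next 66.3). Control replicate 1 held 32.0 CPM of Tek (next lowest 47.5).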

How the results depend on the processing

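The count of the 10 genes called higher was 0, and it was 1 (Angpt1) without control replicate 7, without that library and knockout replicate 4 together, and in a model with the first surrogate variable. Over fits without 1 library it ran from 0 to 1, and the count called lower was 0 in every fit run. All genes called higher numbered 185 and lower 55 in all libraries, 131 to 311 and 30 to 154 without 1 library, 302 and 159 by DESeq2, 355 and 146 with the surrogate variable, and 255 and 148 without the pair of libraries. With the replicate number as a block (14 libraries, without control replicate 8) they numbered 98 and 19, and the wider pathway had 1 called higher, the regulators 1 higher and 0 lower, and hypoxia-responsive genes 0 lower. Same-numbered libraries had correlations of -0.45 to 0.314 in their deviations, over 0.1 in 3 of 7, and 1 of 7 correlated best with its own number. These values cannot tell whether same-numbered mice share more than a number.

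The wider pathway had 1 gene called higher instead of 2 with RLE scaling, library totals alone, voom and no filter on low counts, 1 to 2 without 1 library, and genes called lower numbered 1 by DESeq2 and 2 with the surrogate variable. The regulators had 1 higher and 0 lower with library totals alone, 4 higher with the surrogate variable, and 1 to 4 higher and 0 to 1 lower without 1 library. DESeq2 added Ppargc1a to the regulators called higher. Endothelial markers outside the 10 genes had 1 higher by DESeq2 and with the surrogate variable, and 0 to 1 without 1 library. The cause was not tested.

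Signs turned where differences were near 0. Vegfa had -0.0023 with the block and -0.0091 to 0.17 without 1 library, Egfl7 0.0053 with the block, 0.042 without the pair of libraries and -0.16 to 0.13 without 1 library, and Tek -0.017 to 0.10 and Pecam1 -0.019 to 0.16 without 1 library. With the surrogate variable Nrp1 had 0.060 and Pecam1 -0.022.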

Other observations

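Markers of the cells around vessels and fibres gave these values. Of 10 fibroblast markers none was called by edgeR. Of the 10, 5 had an unadjusted p under 0.05, each lower in knockouts, beside 13.6% of all genes. The list had a median log2 fold change of -0.27 and a summed level of 2714 to 4818 CPM in controls and 1710 to 3680 CPM in knockouts. Muscle fibre markers were abundant in every library, at 47551 to 64108 CPM in controls and 41147 to 76795 CPM in knockouts. Of 11 tested by edgeR, 1 was called higher and 1 lower, beside 1.67% and 0.497% of all genes. Mb, the oxygen carrier myoglobin, rose from 3093 ± 653 to 5048 ± 1373 CPM (log2 0.71 ± 0.17, edgeR adjusted p = 0.0376), and the groups overlapped. Tnnt3, the fast-fibre troponin T, fell from 3121 ± 338 to 1983 ± 305 CPM (log2 -0.65 ± 0.13, edgeR adjusted p = 0.00629), and the groups did not overlap. Of 7 adipocyte markers 1 was called, beside 2.17% of all genes. This was Lep (leptin), which fell from 4.55 ± 2.78 to 1.27 ± 0.93 CPM (log2 -1.83 ± 0.43, edgeR adjusted p = 0.0295). Lep rested on 35.7 tags per library on average, and its lowest knockout stood at 0.378 CPM. As a list the 7 did not fall, with 4 positive and a median log2 fold change of 0.005. Their summed level ran from 864 to 1168 CPM in controls and from 905 to 1644 CPM in knockouts. In the 15 fits that each leave out 1 library, Tnnt3 was called in 15, Lep in 6 (adjusted p up to 0.0702, missed without control replicates 1, 2, 5 and 6 and knockout replicates 1, 2, 3, 5 and 7) and Mb in 5 (up to 0.1097, missed without control replicates 1, 2, 4, 5, 6 and 8 and knockout replicates 2, 3, 4 and 7). With the replicate number as a block Tnnt3 (edgeR adjusted p = 0.0979) and Mb (0.196) were not called. Mb also missed with library totals alone (0.0657), and Lep with the surrogate variable (0.0572). Summed macrophage markers ran from 56.5 to 115 CPM in controls and from 48.9 to 84.5 CPM in knockouts, with 0 of 8 called. Of the 8, 2 had an unadjusted p under 0.05, each lower in knockouts, beside 13.6% of all genes.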
